A study of Rattus norvegicus with 6 samples.

Results

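Shores are the stretches of moderate CpG density that flank CpG-dense DNA. Here a shore was a tile of 1000 nucleotides on chromosomes 1 to 20 with 5 to 19 CpGs and a tile of at least 30 CpGs directly before or after it, and with at least 50 reads in every library. The rule used CpG positions and read counts and did not use methylation. It gave 34527 shores, which were 2.54% of the 1359223 tiles with at least 5 CpGs and the same number of reads. Before the read minimum there were 38413 such tiles, of which 89.9% were kept. The dense tile lay below the shore in 17057 cases, above it in 16946 and on both sides in 524. A shore held a median of 13 CpGs, and all shores together held 447968 CpGs. Whole-genome bisulfite sequencing (WGBS), in which unmethylated cytosines are read as thymines, was done on whole hippocampus of 3 iron-sufficient and 3 iron-deficient Sprague-Dawley rat pups in the third postnatal week. Iron-deficient pups came from dams fed 4 ppm iron from early gestation through the first postnatal week and the control diet afterwards, and iron-sufficient pups came from dams fed 200 ppm iron throughout. Both groups therefore shared strain, tissue, age and the diet of the last week. The labels do not give litter or sex, so the replicates may share either.

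CpG islands are stretches of DNA rich in CpG that often contain promoters and are mostly kept free of methylation. Most other CpGs of a mammalian genome are methylated by the DNA methyltransferases. In the shores the state passes from one to the other, and differences between tissues and cell types are known to be frequent there. Hippocampus contains neurons, astrocytes, oligodendrocytes, microglia and vascular cells, so a partly methylated shore and a mixture of cells with different methylation cannot be told apart in these libraries.

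The 7 promoters shown next recur below and show how CpGs are packed inside a shore or in the dense tile beside it. Each line gives the 250 bases before a transcription start, from RefSeq on GRCr8, in the direction of the gene, with each CpG in capitals. The files use rn4, so each promoter was placed in the files by the spacing of its CpGs and not by its coordinates. The first pair lay inside a shore. *Rrm1* encodes the large subunit of ribonucleotide reductase, and *Sst* encodes the interneuron peptide somatostatin.
Rrm1: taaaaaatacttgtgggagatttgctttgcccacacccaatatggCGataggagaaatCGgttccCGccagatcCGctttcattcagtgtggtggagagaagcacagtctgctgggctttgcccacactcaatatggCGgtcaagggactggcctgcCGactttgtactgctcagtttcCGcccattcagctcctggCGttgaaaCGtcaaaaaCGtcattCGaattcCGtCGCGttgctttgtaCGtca
Sst: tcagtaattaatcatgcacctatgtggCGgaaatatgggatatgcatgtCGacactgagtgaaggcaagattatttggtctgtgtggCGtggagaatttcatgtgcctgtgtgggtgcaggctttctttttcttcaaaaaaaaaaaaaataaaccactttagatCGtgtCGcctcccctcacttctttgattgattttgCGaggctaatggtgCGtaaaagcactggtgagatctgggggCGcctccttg
The next 3 lay in dense tiles whose shores showed large differences between the diets.
Ube2t: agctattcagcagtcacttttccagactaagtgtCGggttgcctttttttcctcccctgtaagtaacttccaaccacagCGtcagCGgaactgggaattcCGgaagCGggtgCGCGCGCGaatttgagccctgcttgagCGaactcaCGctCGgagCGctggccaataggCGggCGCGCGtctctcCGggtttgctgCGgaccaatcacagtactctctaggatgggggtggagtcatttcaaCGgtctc
Dck: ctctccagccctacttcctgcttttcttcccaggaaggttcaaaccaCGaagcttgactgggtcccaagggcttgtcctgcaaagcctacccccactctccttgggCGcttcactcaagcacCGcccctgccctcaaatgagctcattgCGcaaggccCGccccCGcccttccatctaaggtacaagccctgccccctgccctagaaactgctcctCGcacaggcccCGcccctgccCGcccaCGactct
Pim3: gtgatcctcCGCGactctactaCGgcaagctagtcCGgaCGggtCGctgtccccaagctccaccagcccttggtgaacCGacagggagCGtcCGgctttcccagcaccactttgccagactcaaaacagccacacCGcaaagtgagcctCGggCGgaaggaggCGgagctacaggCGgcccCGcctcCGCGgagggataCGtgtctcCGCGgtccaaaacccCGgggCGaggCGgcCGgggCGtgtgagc
The last pair belonged to listed genes whose shores did not overlap between the diets.
Tet3: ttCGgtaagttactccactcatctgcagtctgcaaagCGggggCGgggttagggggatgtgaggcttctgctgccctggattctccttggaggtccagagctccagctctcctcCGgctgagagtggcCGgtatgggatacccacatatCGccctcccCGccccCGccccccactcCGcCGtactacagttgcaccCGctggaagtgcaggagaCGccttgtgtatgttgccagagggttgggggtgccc
Npy: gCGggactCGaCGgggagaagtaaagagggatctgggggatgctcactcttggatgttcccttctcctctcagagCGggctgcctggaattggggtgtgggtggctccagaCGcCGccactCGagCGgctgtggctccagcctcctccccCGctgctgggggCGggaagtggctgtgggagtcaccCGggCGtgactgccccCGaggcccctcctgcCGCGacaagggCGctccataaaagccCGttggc
The stretches held 15 CpGs in *Rrm1*, 8 in *Sst*, 20 in *Ube2t*, 10 in *Dck*, 25 in *Pim3*, 12 in *Tet3* and 17 in *Npy*.

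The libraries held 423622584 to 764041897 reads summed over the CpGs of chromosomes 1 to 20. In shores, the mean number of reads per listed CpG ranged from 20.8 to 36.8 between libraries. A shore had a median of 315 reads per library, from 50 to 100068. Shore methylation correlated between libraries with Pearson r from 0.724 to 0.886 across shores, which are not independent replicates. There were 2 libraries that stood apart, iron-sufficient replicate 2 and iron-deficient replicate 2. In these 17.9% and 20.3% of well covered shore CpGs had methylation between 20% and 80%, against 26.5% to 34.3% in the other 4. Their median absolute difference from the mean of the other libraries was 9.91 and 8.96 percentage points, against 5.93 to 7.68. There was 1 such library in each group. Its part in the diet results was examined by leaving both out.

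Summed over all tiles of a class, shores were methylated at a level between that of the dense tiles and that of distal tiles. Methylation summed over all shores was 61.8%, 61.4% and 62.1% in the iron-sufficient libraries and 61.9%, 62.8% and 63.1% in the iron-deficient libraries. The adjacent dense tiles, 26902 in number, had 24.0% ± 0.288 in iron-sufficient and 24.3% ± 1.39 in iron-deficient pups (SD, n = 3 each). Distal tiles had the same 5 to 19 CpGs but no dense tile within 5 tiles on either side. These 1039145 tiles had 76.4% ± 0.377 and 77.3% ± 0.423. In summed reads, shores exceeded the adjacent dense tiles by 38.0 percentage points ± 0.593 (SD, n = 6) in 6 of 6 libraries. They lay below distal tiles by a difference of -14.7 percentage points ± 0.193, again in 6 of 6. Both differences were far larger than the spread between libraries (two-sided exact paired permutation test, p = 0.031, the smallest that 6 pairs allow, and 0.031 after adjustment over 3 contrasts). Shores next to tiles of at least 50 CpGs lay further below distal tiles, with a difference of -32.3 percentage points. Taken shore by shore, the median step from the dense neighbour was smaller than in summed reads, at 17.8 percentage points.

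**Figure D1:**
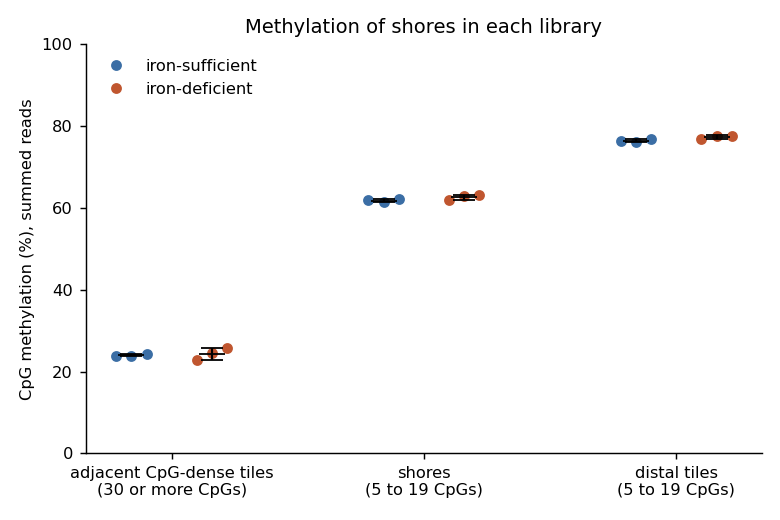
CpG methylation in percent, summed over reads, in adjacent dense tiles, shores and distal tiles; each point is a library and the bars give the mean and SD of 3. Shores sit between 61.4% and 63.1% in all 6 libraries, above the dense tiles and below the distal tiles.

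Methylation was higher with distance from the dense tile over most of a shore. For the 34003 shores with 1 dense neighbour, the farthest 100 nucleotides of the dense tile had 21.5% ± 0.249 in iron-sufficient pups (SD, n = 3), and the last 100 before the border had 40.7% ± 0.501. The first 100 nucleotides of the shore had 45.9% ± 0.19, the stretch from 400 to 500 had 65.6% ± 0.726, and the stretch from 800 to 900 had 72.1% ± 0.337. The last stretch, from 900 to 1000, was slightly lower in all 6 libraries, with 71.3% ± 0.187. Thus the rise began inside the dense tile and was steepest around the border. The outer 200 nucleotides of shores exceeded the inner 200 by 22.9 percentage points ± 0.253 (SD, n = 6), in 6 of 6 libraries (two-sided exact paired permutation test, p = 0.031). Beyond the shore the climb nearly ended. The next tile outward had 72.1% ± 0.33, and the tile 11 steps from the dense tile had 73.0% ± 0.265. These outward tiles were all those with fewer than 30 CpGs, without a read minimum or a limit on other dense tiles nearby. They are therefore not matched to the distal tiles, which had 76.4%. Averaging tiles equally instead of summing reads gave a difference of 16.8 percentage points between outer and inner stretches.

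**Figure D2:**
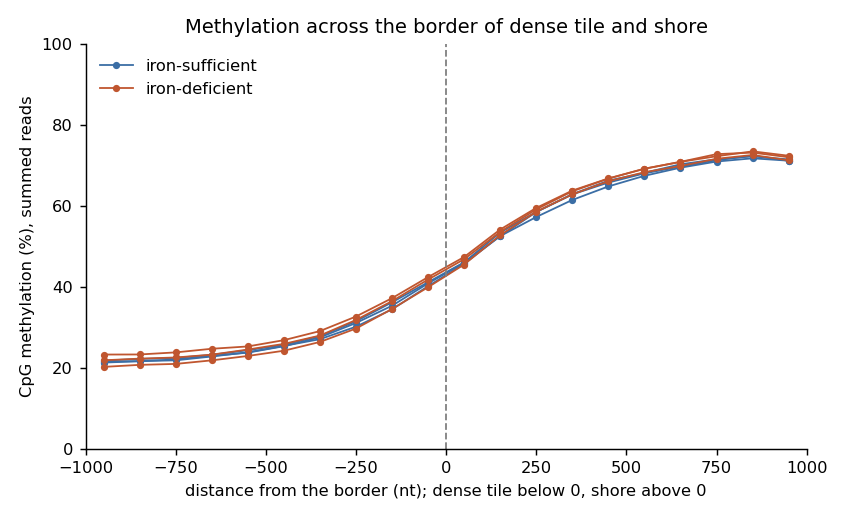
CpG methylation in percent by distance in nucleotides from the border between dense tile (below 0) and shore (above 0), in steps of 100 nucleotides; each line is a library. All 6 lines rise from 20.2% to 23.3% at the far end of the dense tile to above 70% at the outer end of the shore.

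Individual shores differed widely from each other. The median shore had 71.2% methylation over the 6 libraries, with quartiles at 45.9% and 83.9%. Of all shores, 8.95% were below 20%, 56.9% lay between 20% and 80%, and 34.1% were at 80% or more. Among distal tiles only 0.43% were below 20%. Dense tiles next to shores had 53.5% below 20%, 21.2% between 20% and 80%, and 25.3% at 80% or more.

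**Figure D3:**
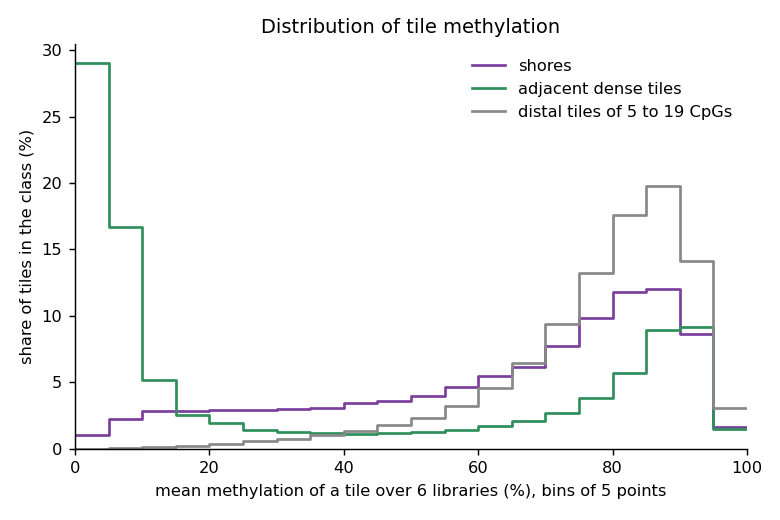
Share of tiles in percent by mean methylation over 6 libraries in bins of 5 percentage points, for shores, adjacent dense tiles and distal tiles. Dense tiles pile up at both ends, distal tiles near the upper end, and shores spread over the range with a median of 71.2%.

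The dense neighbour went with the level of the shore. The 14724 shores beside a dense tile below 10% methylation had 44.0% ± 0.0845 in iron-sufficient pups (SD, n = 3), and 19.3% of them were below 20%. The 9296 shores beside a dense tile at 80% or more had 80.1% ± 0.453. The latter therefore lay below their dense neighbours, which had a mean of 88.6%. Unlike shores as a whole, they lay above distal tiles, which had 76.4% ± 0.377 in iron-sufficient pups. Across 34459 shores the Spearman correlation with the neighbour was 0.578, as a description over tiles of the same libraries. Of these shores 74.0% were more methylated than the neighbour, 48.0% by at least 20 percentage points, and 5.06% were at least 20 percentage points less methylated. The number of CpGs in the neighbour went the same way. Shores beside tiles of 30 to 39 CpGs had 70.9% ± 0.339, and shores beside tiles of 80 CpGs or more had 33.3% ± 0.078. Longer dense stretches had less methylated shores, with 64% ± 0.202 beside 1 dense tile, 56.1% ± 0.721 beside a run of 2, and 49.5% ± 0.669 beside a run of 3 or more. The neighbours themselves had 33.2%, 11.6% and 13.2% in these runs. Neighbours of 30 to 39 CpGs had 55.2%, and those of 80 CpGs or more had 4.19%. CpG number, run length and methylation of the neighbour were thus not told apart.

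The 2 shores of a dense tile were often unlike. There were 8080 dense tiles with a shore on each side, and the Spearman correlation between the 2 shores was 0.319. The median gap was 15.1 percentage points. In 36.5% of these tiles the shores were within 10 percentage points of each other, and in 870 (10.8%) they were more than 50 apart.

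Sparser shores were more methylated. Shores of 5 CpGs had 69.7% ± 0.868 in iron-sufficient pups, and shores of 19 CpGs had 59.1% ± 1.05. At the limits of the rule, tiles of 4 CpGs beside a dense tile had 65.1% ± 0.166 and tiles of 20 CpGs had 57.2% ± 0.403. Tiles whose densest neighbour had 29 CpGs had 72.7% ± 0.43, and shores with a neighbour of 30 CpGs had 73.0% ± 0.368. Tiles with 40 to 49 reads in their lowest library had 67.3% ± 0.97, against 66.8% ± 0.555 in shores with 50 to 59. Across chromosomes, shores made up 1.78% of tested tiles on chromosome 2 and 4.84% on chromosome 12. Their methylation in iron-sufficient pups ranged from 57.8% ± 0.808 on chromosome 2 to 67.0% ± 0.519 on chromosome 20.

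Shores on the 2 sides of a promoter differed. Of 13437 RefSeq promoters with at least 10 CpGs, 11451 matched a single place in the files on their own chromosome. These promoters lay in the dense neighbour of 7708 shores, next to 6632 genes. A shore without a match may still adjoin a promoter that was not matched. The 3612 shores upstream of a promoter had 52.6% ± 0.274 in iron-sufficient pups, and the 3147 shores downstream of one had 43.1% ± 0.167. The downstream minus upstream difference was -9.50 percentage points ± 0.243 (SD, n = 6). It was below 0 in 6 of 6 libraries (two-sided exact paired permutation test, p = 0.031, and 0.031 adjusted over 2 contrasts). Within 1500 dense tiles that had promoters on 1 strand and a shore on each side, the difference was -7.41 percentage points ± 0.175, and the upstream shore was the more methylated in 886 of them (59.1%). CpG number was alike, with a median of 13 on both sides of these tiles. Shores without a matched promoter had 65.8% ± 0.417, and 36.6% methylation in the dense neighbour, compared with 5.9% in the neighbours that held a promoter.

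**Figure D4:**
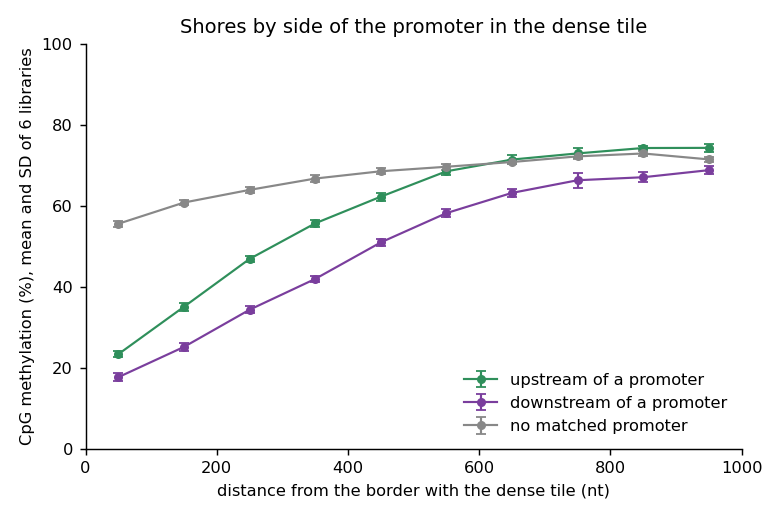
CpG methylation in percent by distance in nucleotides from the dense tile, for shores upstream of a matched promoter, downstream of one, and without a match; points and bars are the mean and SD of 6 libraries. The downstream curve lies below the upstream curve at every distance, and shores without a match start above 50%.

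A matched promoter inside the shore itself was rare, and methylation there was low on average. Only promoters with at least 10 CpGs in 300 bases, 13437 of 32007, could be matched, and a shore holds at most 19. Promoters with fewer CpGs were not placed, so their number in shores and their methylation are not known. There were 92 shores with a matched promoter inside, holding promoters of 93 genes. They had 27.7% ± 2.73 methylation in iron-sufficient and 30.04% ± 1.51 in iron-deficient pups. The *Rrm1* shore (chr1:159930001-159931000, rn4, 19 CpGs) had 0.442%, 1.71% and 0% in the iron-sufficient libraries and 0% in each iron-deficient library, on 588 to 1465 reads. A count of 0 among the 588 reads of iron-deficient replicate 1 allows a methylation of up to 0.51%, for counting error only. The shore that holds a promoter of *Cpeb2*, which encodes a regulator of mRNA translation, had 3.84%, 0% and 1.62% against 0.194%, 0% and 2.54%. The shore with the *Sst* promoter (chr11:79124001-79125000, 15 CpGs) was more methylated, with 6.65%, 16.6% and 30.1% in iron-sufficient and 22.9%, 29.5% and 34.2% in iron-deficient pups. The groups of the *Sst* shore overlapped. The 11 CpGs of its promoter alone had 3.09%, 2.14% and 13.1% against 18.4%, 20.8% and 26.7%, and these did not overlap. Of the 92 shores, 38.0% were below 20% and 8.7% were at 80% or more. Among the 87 with at least 100 reads in every library, the 3 highest lay at chr1:84981001-84982000, chr5:159892001-159893000 and chr14:11040001-11041000. They hold promoters of genes known only by a locus symbol. Iron-sufficient pups had 89.4% ± 4.41, 92.8% ± 3.33 and 87.6% ± 8.12 there, and iron-deficient pups had 97.6% ± 1.8, 93.6% ± 2.59 and 95.3% ± 2.61. *Cpeb2*, the *Sst* promoter and these 3 were picked after their values were seen.

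Levels in single shores differed between the 6 libraries with a median SD of 9.93 percentage points. Read counts alone would give 2.39 if every read were an independent molecule, which these reads need not be. Distal tiles had 10.1 and 2.57, and adjacent dense tiles had 4.30 and 0.82. At a mean methylation of 40% to 60% the SD was 13.7 in shores, 14.7 in distal tiles and 11.1 in dense tiles. The SD was lower in deeper shores, with 8.46 in those with at least 200 reads in every library and 6.89 in those with at least 400. Without the 2 libraries that stood apart, the median over all shores was 7.86.

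Over all shores, the levels of the 2 diets overlapped in summed reads, and the difference between them did not pass the test, which 3 against 3 cannot pass. Methylation was 61.8% ± 0.344 in iron-sufficient and 62.6% ± 0.597 in iron-deficient pups (SD, n = 3 each). The difference was 0.834 percentage points (two-sided exact permutation test, p = 0.2, where 3 against 3 cannot go below 0.1). The level of the median shore did not overlap, with 70.6%, 69.5% and 70.7% in iron-sufficient and 70.8%, 71.4% and 71.7% in iron-deficient pups (exact permutation p = 0.1). The mean over tiles differed by 0.863 percentage points, and shores beside tiles of at least 50 CpGs differed by 1.02 (exact permutation p = 0.1 for each). Distal tiles differed by 0.886 percentage points (exact permutation p = 0.1). In summed reads, the step from dense tile to shore was 37.8 ± 0.157 and 38.3 ± 0.812 percentage points (exact permutation p = 0.4). This difference of 0.51 was 0.12 without iron-deficient replicate 1 and 0.93 without iron-deficient replicate 3. With tiles averaged equally, the step differed by 0.351 percentage points (exact permutation p = 0.1). The rise from inner to outer stretches was 22.8 ± 0.181 and 22.9 ± 0.343 percentage points (exact permutation p = 0.7). The mean was higher in iron deficiency on 20 of 20 chromosomes, which share the same 6 libraries. Among 57 comparisons of this kind, over shores, their subsets and the other tile classes and with reads per CpG included, 16 reached p = 0.1 in the exact permutation test, and the lowest adjusted p was 0.345. Without both replicates 2, a choice made after the data were seen, the difference over all shores was 0.547 percentage points.

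No single shore passed the test for a difference between the diets. edgeR with Benjamini-Hochberg adjustment called 0 of 34527 shores at an adjusted p of 0.05, and 0% of all tested tiles. At an unadjusted p under 0.05 it gave 895 shores (2.59%), against 2.78% of all tested tiles. Of these 564 (1.63%) were higher in iron deficiency, against 1.77%, and 331 (0.959%) were lower, against 1.01%. The largest increase described below, of 67.5 percentage points, had an unadjusted edgeR p of only 0.00887. The 0 adjusted calls therefore do not show that single shores were alike between the diets. limma called 0 shores after adjustment and 1136 (3.29%) at an unadjusted p under 0.05, against 4.16% of all tested tiles. Without iron-sufficient replicate 1, edgeR gave 599 higher and 598 lower shores, so that 50.04% of the calls were higher instead of 63.0%, against 40.2% instead of 63.7% over all tested tiles, while the difference over all shores was 0.865 percentage points. In 2017 shores (5.84%) every iron-deficient pup lay above every iron-sufficient pup, against 5.9% of all tiles. In 1437 (4.16%) every one lay below, against 4.06%. These shares of shores were close to the background in both directions. They were also similar beside unmethylated and methylated neighbours, with 5.87% higher and 4.36% lower next to dense tiles under 20%, and 5.9% and 3.98% next to dense tiles at 80% or more.

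The shores with the largest differences between the diet means are described here by their values, since they were selected for that difference. They are the 5 largest increases and 5 largest decreases among shores that did not overlap and had at least 100 reads in every library, 1646 and 1152 in number. The largest increase lay downstream of the promoter of *Ube2t*, a ubiquitin-conjugating enzyme of the Fanconi anaemia repair pathway. That shore (chr13:47925001-47926000, 10 CpGs) had 7.41%, 0% and 17.4% in iron-sufficient and 40.1%, 96.5% and 90.8% in iron-deficient pups. Its dense neighbour stayed between 2.43% and 9.01% in all 6 libraries, and the 24 promoter CpGs had at most 18.4%. The shore upstream of *Dck*, which encodes deoxycytidine kinase of the nucleoside salvage pathway, had 46.9%, 1.87% and 22.1% against 79.9%, 67.9% and 49.2% (chr14:20905001-20906000, 15 CpGs). The nearest pups of the 2 groups were 2.27 percentage points apart there. A further 3 had no matched promoter. On chromosome 14 (chr14:6548001-6549000) the levels were 17.3%, 27.0% and 27.7% against 77.9%, 100% and 61.4%, beside a dense tile with 93.9% methylation. Those at chr13:106477001-106478000 and chr6:94026001-94027000 had iron-sufficient means of 35.1% ± 9.66 and 32.5% ± 20.2, and iron-deficient means of 80.4% ± 13.6 and 77.2% ± 18.97.

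The 5 largest decreases lay beside dense tiles of low methylation. The shore at chr1:78859001-78860000, without a matched promoter, had 67.3%, 65.3% and 86.2% in iron-sufficient and 30.5%, 11.6% and 31.1% in iron-deficient pups. Downstream of *Dcp2*, which encodes the mRNA decapping enzyme, the shore at chr18:38051001-38052000 had 50.2%, 80.9% and 63.9% against 42.9%, 7.14% and 27.3%. Upstream of *Pim3*, a serine/threonine kinase gene, the shore at chr7:127166001-127167000 had 75.4%, 100% and 72.4% against 50%, 44.1% and 42.7%. The *Pim3* promoter itself had 1.4% to 6.02% in the 6 libraries. The other 2, at chr15:14410001-14411000 and chr1:80552001-80553000, had group means of 93.0% ± 6.16 against 51.4% ± 37.4 and 75.2% ± 14.6 against 36.1% ± 17.4. Their nearest pups were 0.489 and 4.04 percentage points apart. The shore on chromosome 15 had 88.0%, 13.2% and 53.0% in the iron-deficient libraries, where the lowest value came from replicate 2, a library that stood apart. Dense neighbours of the 5 decreases had mean methylation from 3.8% to 7.97%. In most of the 10 shores with the largest differences, a replicate 2 library held the most extreme value of its group in the direction of the difference. None of the 10 shores passed the edgeR test after adjustment over all tiles, in which every adjusted p was 1.

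Gene groups were read from shores next to, or holding, a matched promoter, and genes without a match could give no shore. Matched were 12 of 25 iron homeostasis genes, 13 of 19 DNA methylation genes and 6 of 24 excitatory synapse genes. Further, 9 of 16 inhibitory, 5 of 15 myelin and 12 of 24 imprinted genes were matched. Counts of shores without overlap are to be read against the 5.9% of all tested tiles that were higher and the 4.06% that were lower in iron deficiency. The iron homeostasis list had 11 shores at 7 of 25 genes, and in none of them did the groups keep apart. *Slc40a1*, which encodes the iron exporter ferroportin, had an upstream shore with 41.0%, 30.3% and 29.7% against 38.0%, 90.3% and 34.8%. Its downstream shore had 54.2% ± 1.96 against 55.6% ± 4.66. The upstream shore of *Slc40a1* thus differed in a single iron-deficient pup, replicate 2. *Aco1* and *Ireb2* encode the iron regulatory proteins. The upstream shore of *Aco1* had 62.9% ± 4.92 against 61.1% ± 10.7, and its downstream shore had 28.0% ± 14.1 against 36.7% ± 13.3. The shore of *Ireb2* had 45.5% ± 31.9 against 43.2% ± 9.45. *Cybrd1*, a ferric reductase gene, *Ncoa4*, which encodes the receptor for ferritin turnover, *Pcbp2*, an iron chaperone gene, and *Bmp6*, which signals to hepcidin, made up the rest. Over the list, the median difference was -1.43 percentage points, against 0.741 over all shores and 0.782 over all tested tiles. The level summed over its shores differed in the other direction, with 50.7%, 53.4% and 55.7% in iron-sufficient and 56.3%, 68.9% and 50.8% in iron-deficient pups, where the highest value came from replicate 2, a library that stood apart.

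The DNA methylation machinery had 9 shores at 7 of 19 genes, and 1 did not overlap. It lay upstream of *Tet3*, which encodes a dioxygenase that oxidises 5-methylcytosine, and had 43.5%, 39.6% and 63.9% in iron-sufficient against 29.7%, 23.3% and 28.2% in iron-deficient pups. All 3 iron-deficient pups were lower, while the *Tet3* promoter had 0.285% to 7.06% in the 6 libraries. *Dnmt1*, the maintenance methyltransferase gene, had 66.2% ± 6.37 against 63.97% ± 19.2 in its upstream shore. The list's median difference was 1.12 percentage points.

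Genes of neurons gave 9 shores. Excitatory synapse genes had 3 shores at 2 of 24 genes, *Grin1* and *Creb1*, with 0 that kept apart and a median difference of -2.75 percentage points. *Grin1* encodes the obligate subunit of NMDA receptors, and its downstream shore had 36.6%, 65.9% and 15.2% against 22.6%, 33.5% and 33.2%. Its upstream shore differed in the other direction, with 41.5% ± 21.4 against 56.5% ± 20.4, and both overlapped. Interneuron and inhibitory synapse genes had 6 shores at 5 of 16 genes, 1 of which did not overlap, with a median difference of 4.41 percentage points. Upstream of *Npy*, which encodes the interneuron peptide neuropeptide Y, methylation was 42.0%, 23.0% and 33.5% against 53.4%, 53.2% and 43.7%. All 3 iron-deficient pups were higher, with 1.65 percentage points between the nearest pups of the 2 groups. The *Npy* promoter had at most 3.21%.

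Myelin genes had 3 shores at 2 of 15 genes, with a median difference of -2.06 percentage points. Their summed level differed in the other direction, with 69.3% ± 4.35 in iron-sufficient and 79.7% ± 6.999 in iron-deficient pups. The upstream shore of *Mbp*, which encodes myelin basic protein, had 52.2%, 39.7% and 41.2% in iron-sufficient and 70.9%, 65.5% and 83.6% in iron-deficient pups (chr18:79024001-79025000, 16 CpGs). The groups were separated there, and the dense neighbour had 74.8% methylation. The downstream shore of *Mbp* had 86.7% ± 4.69 against 84.6% ± 0.667. *Cnp*, which encodes a myelin enzyme, had 72.5% ± 7.68 against 69.9% ± 28.6 upstream. Imprinted genes had 7 shores at 7 of 24 genes, 1 of which did not overlap, with a median difference of -6.55 percentage points. That shore lay downstream of *Igf2r*, a receptor gene expressed from the maternal allele in most rodent tissues, and had 53.0%, 51.3% and 47.7% against 29.3%, 43.6% and 35.7%. No shore was found for the lists of glial and endothelial genes and of homeobox genes, of which 2 of 16 and 11 of 30 genes had a matched promoter. Across all lists 4 of 39 shores (10.3%) did not overlap, 2 in each direction, against 10% of all shores, and none of them passed adjustment.

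**Figure D5:**
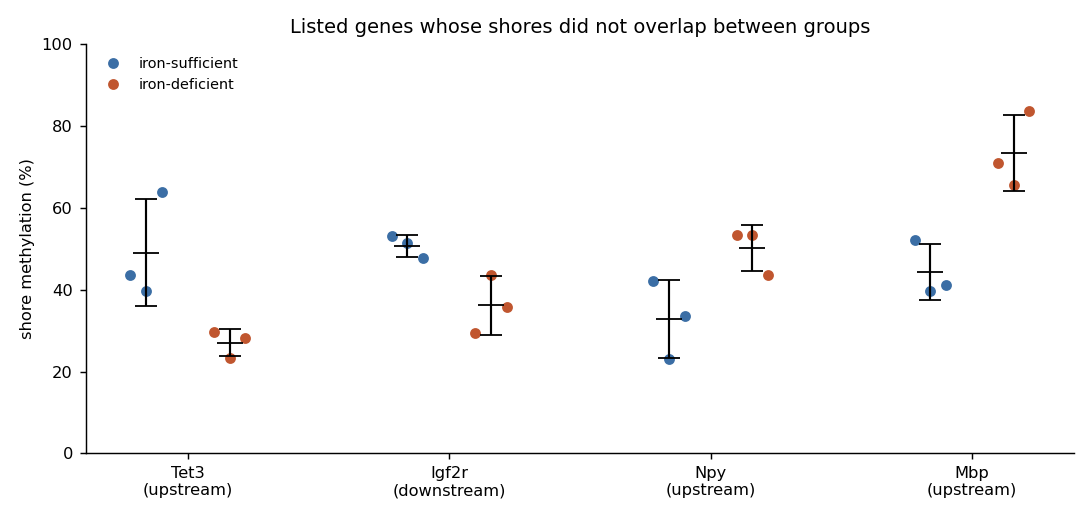
Methylation in percent of the 4 shores of listed genes whose groups did not overlap; each point is a library and the bars give the mean and SD of 3. *Tet3* and *Igf2r* shores are lower in iron deficiency, and *Npy* and *Mbp* shores are higher.

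Some shores went against the state of their neighbour in all 6 libraries. Among shores with at least 100 reads in every library, 7555 lay beside a dense tile at 80% or more. The lowest of these, at chr1:13480001-13481000, had 4.44%, 9.05% and 21.3% in iron-sufficient and 2.77%, 18.3% and 15.6% in iron-deficient pups, beside a tile with 94.1%. The next lowest, at chr7:95942001-95943000 and chr5:139054001-139055000, had 13.3% ± 8.46 and 15.5% ± 7.93 in iron-sufficient pups beside tiles with 82.6% and 87.9%. In the opposite direction, 11687 lay beside a dense tile under 10%. The shore at chr19:25597001-25598000 had at least 95.2% in every library beside a tile with 4.47%. A shore upstream of *Dtwd1* and downstream of the promoter of *Fam227b*, at chr3:113579001-113580000, had 90.3% to 100% beside a tile with 6.14%, in which both promoters lay. The third, at chr3:41601001-41602000, had 92.2% to 100% beside a tile with 6.04%.

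Among the 14324 shores with at least 200 reads in every library, the most variable lay at chr4:164214001-164215000. Its levels were 59.1%, 13.4% and 91.5% in iron-sufficient and 66.3%, 31.0% and 26.5% in iron-deficient pups, while the dense neighbour had 2.69%. The second, at chr2:23025001-23026000, had 63.0%, 12% and 52.7% against 22.1%, 90.9% and 50.3%, beside a tile with 89.1%. In both, the spread lay within the groups. The steadiest were the *Rrm1* shore and a shore upstream of *Stx8*, which encodes a syntaxin of endosomes, with 0% to 1.26% on 643 to 1201 reads (chr10:54699001-54700000). Both had levels near 0%, where the SD has little room. Over all shores, the median SD was 7.45 percentage points at a mean of 0% to 20%, against 13.7 at 40% to 60%.

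The windows that the study draws for *Gucy2c*, *Usp36*, *Tnni1*, *Pde6c*, *Chd2*, *Mobp* and *Pck1* were also looked up. They were chosen there on these same libraries, so their differences are no independent evidence. They were located from figure axes on which the digits 6 and 8 were not always distinguishable, so their places are not certain. Of the 7 windows, 3 lay in the dense neighbour of a shore. The shore beside the *Tnni1* window (chr13:48818001-48819000) had 81.5%, 100% and 85.0% in iron-sufficient and 85.3%, 78.7% and 67.6% in iron-deficient pups. Its dense neighbour, which holds the window, had 60.02%, 34.6% and 45.1% against 67.9%, 68.0% and 72.2%. The neighbour did not overlap between the groups and was higher in iron deficiency, whereas the shore overlapped. The shores on either side of the *Pde6c* window had 76.0% ± 2.71 against 74.9% ± 5.41 and 72.1% ± 8.93 against 76.3% ± 7.49. The shore beside the *Chd2* window had 88.3%, 100% and 28.8% against 100%, 100% and 85.7% on 50 to 125 reads, where a single iron-sufficient pup was low. *Gucy2c*, *Usp36*, *Mobp* and *Pck1* windows gave no shore by the rule.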

How the data were processed

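WGBS of 6 hippocampi, 3 per diet, was analysed. The authors trimmed adapters, aligned reads to rn4 with BS Seeker and joined both strands of a CpG. The deposited files hold 1 line per CpG with its methylated fraction and its coverage (a count of reads), without normalization. Samples were not pooled. Duplicate removal, and whether positions count from 0 or 1, are not given in the sources used here. Fraction times coverage gave the methylated reads, which differed from whole numbers by at most 0.01. Intervals are not given, since reads are not independent molecules.

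The members and lists were chosen with earlier results of these data known. Levels were methylated over total counts summed per library. The diets were compared with two-sided exact permutation tests over samples, and within-library contrasts by exact sign-flip permutation. Single tiles were tested over all 1359223 tiles with edgeR 4.0.16 (glmQLFit and glmQLFTest, sample effects, common dispersion, R 4.3.3) and Benjamini-Hochberg adjustment, with limma 3.58.1 on log2((methylated + 1)/(unmethylated + 1)) as the alternative. The methods were tested on simulated data. Python 3.11.15 was used with numpy 2.4.6 and pandas 2.3.3. P-values measure the spread between these samples, which the labels do not tie to litters.

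Regions named were, among shores with at least 100 reads in every sample, the 5 largest increases and decreases without overlap and the 3 most extreme beside methylated (80% or more) and unmethylated (under 10%) tiles, the 2 most and least variable with 200 reads, and shores at windows drawn in the study, located from figure axes with digits that were not always distinguishable. The rule had allowed gene names only from an annotation of the same build. Genes were instead named afterwards by matching the CpG spacing of RefSeq promoters (GRCr8, 300 bases), which was unique for 11484 of 13437 promoters, 99.7% of them on the expected chromosome. The gene lists were written after the files were seen and before the values of their genes. Replicate numbers were not used to pair samples in the main tests. Alternatives were the read and CpG coverage minimum, tile weights, a tile shift of 500 nucleotides, dense tiles of 50 CpGs, the distance of distal tiles, a replicate block and leaving out each replicate. Another left out the CpGs of the top 1% coverage.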

Additional observations from a re-analysis of the deposited data

How the results depend on the processing

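The 9 results were recomputed under alternatives, 99 in all. None changed direction, and 78 kept their side of the threshold or stayed within 1.5 times the count reported. For the diet differences over shores and in the step, keeping their side was fixed in advance. Their exact permutation p cannot go below 0.1 in any setting. The other 21 alternatives left out libraries, where 5 pairs cannot go below an exact permutation p of 0.0625 and 4 pairs cannot go below 0.125. Over these, shores minus dense tiles ranged from 37.8 to 38.1 percentage points, shores minus distal tiles from -14.7 to -14.6, and outer minus inner stretches from 22.8 to 22.9. Averaging tiles equally gave 26.1 percentage points for shores minus dense tiles. In summed reads this contrast was 35.8 without the CpGs of the top 1% coverage. It was 41.9 with CpGs of at least 10 reads in all libraries. The diet difference over shores ranged from 0.547 to 1.17 percentage points when libraries were left out, that in the step from dense tile to shore from 0.12 to 0.93, and shores with an unadjusted p under 0.05 from 724 (2.10%, against 2.33% of all tiles) to 1197 (3.47%, against 3.72%). Leaving out both replicates 2 was added after the data were seen and gave 1086 (3.15%, against 3.23%). Deviations of shore levels were not correlated between samples with the same replicate number (correlations of -0.0015, -0.0035 and 0.01). Such a correlation does not measure whether 2 libraries scatter more than the others, as both replicates 2 did. With a replicate block the diet difference stayed 0.834 percentage points (exact permutation p = 0.25, the smallest that 3 pairs allow), and edgeR gave 0 adjusted and 820 unadjusted calls (2.37%, against 2.55%). With CpGs of at least 10 reads in all libraries, 2430 of 28903 shores (8.41%) did not overlap, against 3454 of 34527 (10%). Coverage of 20.8 to 36.8 reads per CpG and 3 pups per group limit what a single shore can show.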
